A study of Mus musculus with 67 samples.

Results

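The extracellular matrix and cell adhesion genes of a mouse cDNA filter were followed in the cerebral cortex across age, diet and sex. Members were taken by symbol from the spots that carry a single gene symbol: collagens, laminin chains, integrin subunits, cadherins and protocadherins, ADAM and ADAMTS proteases, matrix metalloproteinases, TIMP inhibitors, claudins, symbols that start with Tgfb or Sparc, and the surface proteins Bsg and Pecam1. This gave 48 spots for 42 genes, of 3905 genes with a single symbol on 8448 spots. The prefixes also took in Cldnd1, Adamtsl1 and Tgfbrap1, which are named after these families without being a claudin, a protease or a ligand or receptor; no fibrillin or fibulin was found. Cldn5, Cldn11, Timp2 and Sparcl1 were not among the genes with a single symbol and were not analysed here.

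Cortex RNA came from 67 C57BL/6 mice, 1 mouse per array. Mice fed regular chow ad libitum (AL) were 1, 6, 16 or 24 months old, with 5 males and 5 females at each age. Calorically restricted (CR) mice had regular feed until 13 weeks of age, were stepped down to 60% of a fortified feed and were kept on it; there were 4 males and 5 females at 6 months, 5 and 5 at 16 months, and 3 and 5 at 24 months. The ages in days were 17 to 44, 169 to 194, 472 to 499 and 673 to 743, so the youngest group ran from before weaning to after it, and it was compared only under AL feeding. All 3 CR males of 24 months were 673 days old, and every AL male and every CR female of 24 months was older. In comparisons that use these males, diet and age in days cannot be told apart. The same holds for sex and age in days among the 24-month CR mice.

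The extracellular matrix of brain is unlike that of connective tissue: fibrillar collagen is sparse and lies mainly in meninges and vessel walls, while the basement membrane of capillaries is built of laminins and type IV collagen. Integrins are paired alpha and beta subunits that bind these proteins from the cell surface. Cadherins and claudins join cells to each other, ADAM, ADAMTS and matrix metalloproteinases cut matrix and surface proteins, TIMPs inhibit them, and TGF-beta ligands are held in the matrix and act through surface receptors. In a whole-cortex extract, fewer cells of a type and less RNA per cell cannot be told apart.

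The measured value is a z-score: the spot's signal after each array was brought to mean 0 and SD 1 over its spots. Differences are therefore in units of that array SD, not folds, and the z of one gene's spot cannot be set against another's as an amount of RNA. Testing was limited to genes whose z, averaged over the 67 arrays, exceeded 0. That kept 16 of the 42 members (38.1%), against 42.4% of all genes with a single symbol. Closest to the limit were Sparc (mean z 0.00294), Itga1 (0.00403) and Adamts4 (0.0564) above it, and Lamb1 (-0.128), Adamts1 (-0.152) and Itgb5 (-0.166) below it. Marker lists were set against the same limit: all 4 neuronal markers on the filter passed it (Snap25, Tubb3, Stmn3, Uchl1), as did all 3 astrocyte markers and both oligodendrocyte markers. Of 2 endothelial markers 1 passed (Pecam1). The 2 choroid plexus and 2 fibroblast markers did not, and no blood or microglial marker from the lists was found. Because z does not compare amounts between genes, these counts cannot verify the tissue label.

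The arrays fell into 2 sets by their running number, 1 to 45 and 46 to 67, and every group had arrays in both. Of all 3609 features tested, 72.4% differed between the sets at adjusted p < 0.05, and among the members 13 of 16 did, 8 higher and 5 lower in arrays 46 to 67. The median size of the shift was 0.289 z in the members and 0.185 z in all features. Sparc, Itga1 and Col22a1 had mean z below 0 in arrays 1 to 45 (-0.0956, -0.0473 and -0.0553) and above it in arrays 46 to 67 (0.204, 0.109 and 0.475). These genes passed the limit for testing only through the later arrays. Every comparison below was fitted with the set as a term. The running numbers also pass through the groups in 5 rounds, and 13.6% of features differed between rounds beyond the set, among them Bsg, Col22a1 and Lama5. The array numbered 67 (24-month AL female, replicate 5) was the least like the rest of its set, with a median correlation of 0.903 to the other arrays against 0.955 for the next lowest; in the earlier set it was the array numbered 7 (16-month CR male, replicate 1), with 0.891 against 0.928. One further array, replicate 2 of the 24-month AL males, has free text that describes a 1-month animal, while its title and characteristics, which were used here, do not.

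**Figure D1:**
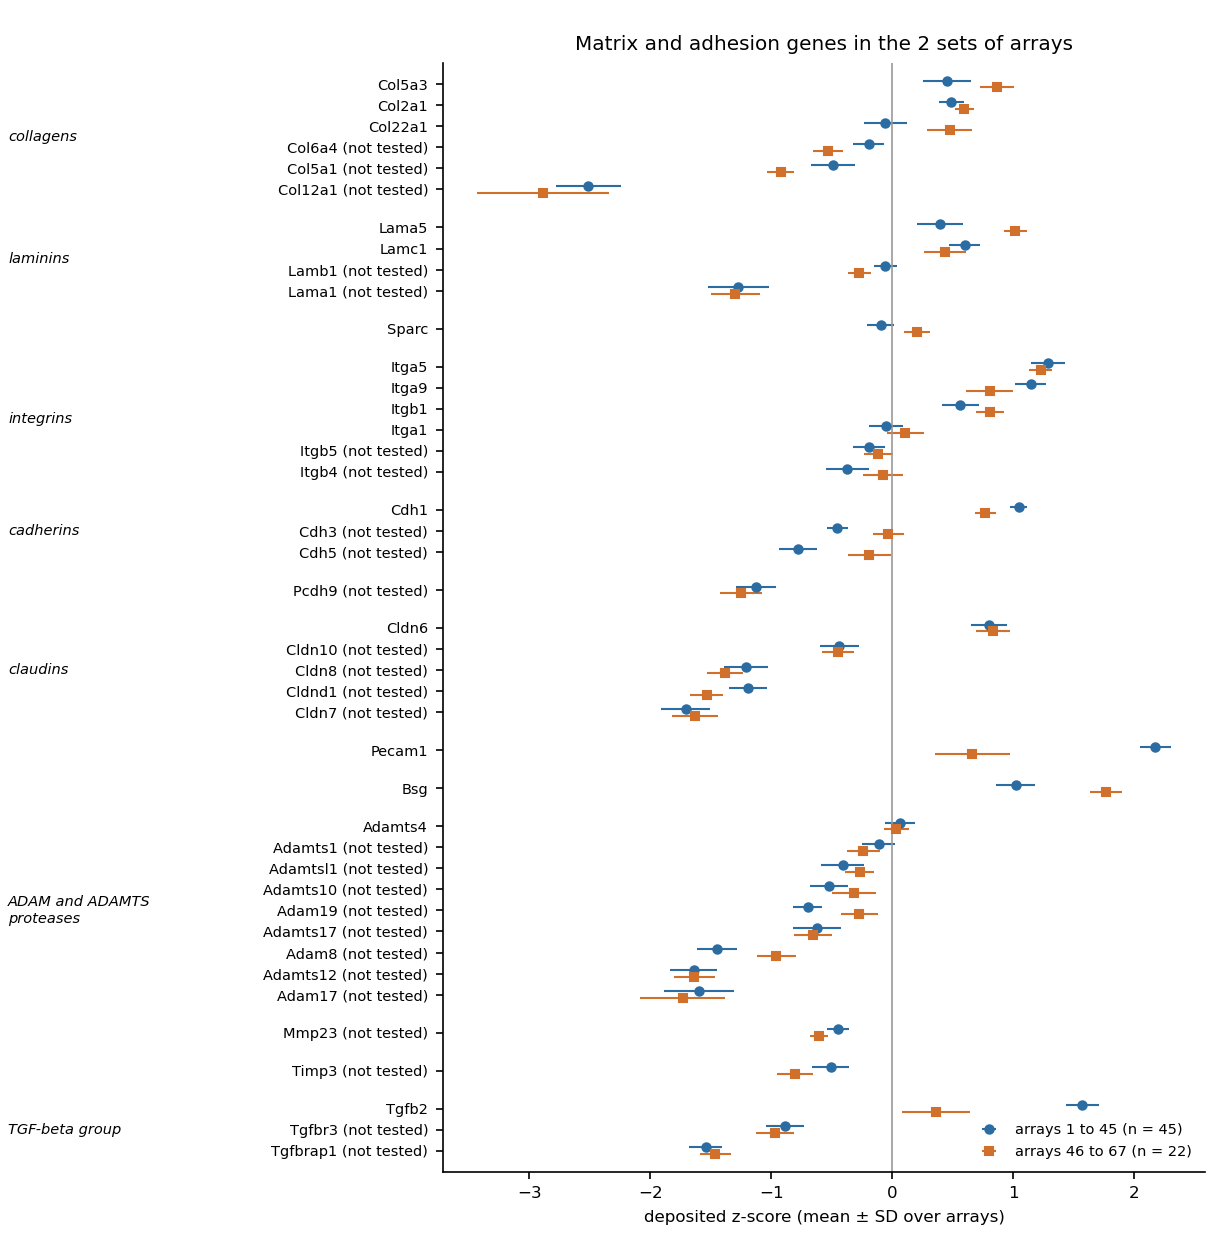
Mean deposited z-score ± SD of each of the 42 genes, by subfamily, in arrays 1 to 45 (blue circles, n = 45) and 46 to 67 (orange squares, n = 22). The shift between the sets was far larger than the SD within a set for Pecam1 (2.17 to 0.661), Tgfb2 (1.57 to 0.363), Bsg (1.02 to 1.77) and Lama5 (0.398 to 1.02), among others. For Lama5 the fitted shift was 1.10 z at spot 838 and 0.163 z at spot 3697.

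Within the families, 3 of 6 collagens passed the limit: Col5a3, an alpha chain of the minor fibrillar type V collagen, Col2a1, the main fibrillar collagen chain of cartilage, and Col22a1, a collagen of tissue junctions. Their mean z was 0.590, 0.525 and 0.119, while Col12a1 had the lowest mean of all members at -2.63. Of the 4 laminin chains, Lama5 (0.601) and Lamc1 (0.548) passed; with Lamb1 they are the chains of a laminin of vascular basement membrane. Integrins were the best represented family, with 4 of 6: Itga5 (1.27), Itga9 (1.03), Itgb1 (0.646), which is the beta subunit that the other 3 pair with, and Itga1. Single genes passed among the cadherins (Cdh1, the epithelial E-cadherin, 0.955), the claudins (Cldn6, 0.813), the ADAM and ADAMTS genes (Adamts4, an aggrecanase) and the TGF-beta group (the ligand Tgfb2, 1.17). The only protocadherin (Pcdh9), metalloproteinase (Mmp23) and TIMP (Timp3, mean z -0.604) lay below it. Pecam1, an adhesion molecule of endothelium, had the highest mean of all members over the 67 arrays (1.68). Bsg, the surface glycoprotein that escorts lactate transporters to the membrane, had 1.27, and the endothelial cadherin Cdh5 lay at -0.582. That ranking did not hold in arrays 46 to 67, where Pecam1 had 0.661 (2.17 in the earlier arrays) and Bsg 1.77. Tgfb2 likewise had 1.57 in the earlier and 0.363 in the later arrays.

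No member passed adjusted p < 0.05 in any of the 13 comparisons, in limma with Benjamini-Hochberg adjustment over all features. This was also the count over all features: 0 of 3609, or 0%, in every comparison. At an unadjusted p under 0.05 there were 15 of the 208 tests of members (7.21%), in 8 genes, against 6.52% of all tests. The members as a list thus had about the share of low p-values that the whole filter had. Over the 10 comparisons that are not interactions, member differences ran from -0.187 to 0.161 z, and no 95% interval reached beyond 0.327 z in either direction. A residual SD of 0.144 z (median of the 16; range 0.0799 to 0.203) was the spread among mice of a group on which these intervals rest. Simulated data were drawn with each feature's residual SD and set shift and with independent normal noise. In them 200 of 3609 features were changed. Changes of 0.25 z were called for 75.7% of those features between 16 and 24 months under AL, 67.8% for diet at 24 months and 98.4% for sex. Changes of 0.1 z were called for only 6.57%, 6.12% and 36.7%. The noise held no rounds and no outlying array, and with fewer changed features the adjustment asks for a smaller p. These shares therefore do not say how many such member changes would be called in the real data.

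**Figure D2:**
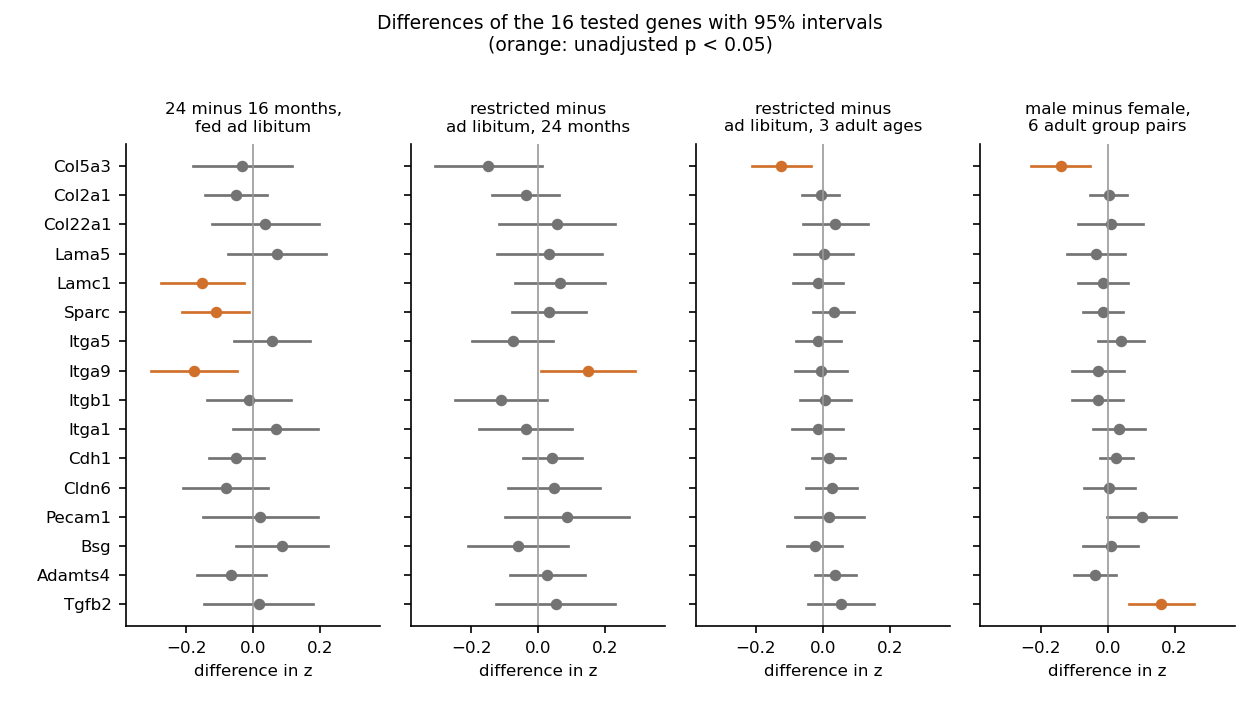
Difference in z with its 95% interval for the 16 tested genes in 4 of the 13 comparisons. Orange marks unadjusted p < 0.05: Lamc1, Sparc and Itga9 for age, Itga9 and Col5a3 for diet, Col5a3 and Tgfb2 for sex. All adjusted p-values were above 0.05.

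With age under AL, 3 members had an unadjusted p under 0.05 between 16 and 24 months, all with lower values at 24 months: Itga9, Lamc1 and Sparc. Of all features, 15% had an unadjusted p under 0.05 there, so 3 of 16 members is close to the background. Without the array numbered 67 both counts were smaller, at 1 member (Pecam1, higher) and 7.86% of features. The median difference was -0.0225 z in the members and -0.019 z in all features, with 7 of 16 members higher. From 1 to 6 months no member had such a p (background 4.1%); the largest differences were 0.0900 z for Itga5 and -0.0878 z for Pecam1. Next, from 6 to 16 months 1 did (Sparc; background 2.58%), followed by Adamts4 at 0.0693 z (unadjusted p = 0.188) and Bsg at -0.0892 z (unadjusted p = 0.203). Over the whole span from 6 to 24 months it was 1 under AL (Lamc1; background 8.12%) and 1 under CR (Itgb1; background 3.99%).

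Itga9, the alpha subunit of a receptor for tenascin and other matrix ligands, had set-adjusted z from 1.02 to 1.42 (median 1.25, n = 10) at 16 months and from 0.468 to 1.25 (median 1.16, n = 10) at 24 months under AL. The groups overlapped, and the array numbered 67 lay far below the others at 24 months. The fitted difference was -0.177 ± 0.0647 z (SE; unadjusted p = 0.00809, adjusted p = 0.249). Without that array it was -0.110 z with an unadjusted p of 0.0607. By set it was -0.115 z in arrays 1 to 45 and -0.270 z in arrays 46 to 67. From 6 to 24 months the Itga9 difference was -0.103 z under AL and 0.106 z under CR, neither with an unadjusted p under 0.05; without the array numbered 67 the AL value was -0.0388 z, and the CR value came down to 0.0499 z when a single array was left out.

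Lamc1, the gamma chain shared by most laminins, had z from 0.560 to 0.800 (median 0.623) at 16 months and from 0.175 to 0.760 (median 0.578) at 24 months under AL, 10 mice each. Some of the 24-month mice lay below all those of 16 months and the rest lay among them. The difference was -0.152 ± 0.0622 z (unadjusted p = 0.0173, adjusted p = 0.281), and from 6 to 24 months it was -0.146 ± 0.0623 z (unadjusted p = 0.0218, adjusted p = 0.498). In both, the array numbered 67 carried part of it: without it the values were -0.118 z (unadjusted p = 0.0610) and -0.114 z (unadjusted p = 0.0701). From 16 to 24 months the difference was -0.0767 z in the earlier set and -0.265 z in the later. Under CR the 6-to-24-month difference was -0.0311 z, and the difference between the diets in this respect was 0.115 ± 0.0929 z (unadjusted p = 0.219). The laminin chain Lama5 had a 16-to-24-month difference of 0.0715 z under AL, opposite in sign to Lamc1.

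Sparc, a matricellular protein that binds collagen, was the only member with low p-values in neighbouring age steps: 0.118 ± 0.0507 z from 6 to 16 months (unadjusted p = 0.0232, adjusted p = 1.00) and -0.112 ± 0.0506 z from 16 to 24 months (unadjusted p = 0.0301, adjusted p = 0.292). Its set-adjusted z ran from -0.270 to -0.0433 at 6 months, from -0.160 to 0.167 at 16 months and from -0.300 to 0.0333 at 24 months, with medians of -0.137, -0.0434 and -0.187. The 16-month mice were thus higher as a group, with overlap on both sides. These steps share the 16-month mice and are not independent of each other. In arrays 1 to 45 they were 0.156 and -0.174 z, and in arrays 46 to 67 they were 0.0442 and -0.0192 z. Between 6 and 24 months the difference was 0.00567 z. Because Sparc lay just above the limit, it dropped below it and was not tested when any of 12 single arrays was left out, the array numbered 67 among them.

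Sparc was printed as 3 spots, and these were far apart: mean z was 0.457, -0.696 and 0.248 for spots 2977, 4342 and 6518. The spot of lowest signal gave the largest age steps, 0.168 z (unadjusted p = 0.0431) and -0.201 z (unadjusted p = 0.0162), while the brighter ones gave 0.133 and 0.0529 z for the first step and -0.0710 and -0.0650 z for the second. All 3 spots had the same sign in both steps. From 6 to 24 months under CR they did not: -0.226 z (unadjusted p = 0.0150) at spot 4342, 0.0405 z at spot 2977 and -0.0227 z at spot 6518. Over the 67 arrays the residuals of its spots correlated with r = 0.00864, 0.154 and 0.189. The other members with several spots were no closer: r was -0.122 for Adam17, 0.0277 for Cdh1, 0.0337 for Lama5 and 0.140 for Lamb1, whose mean z was 0.808 at one spot and -1.06 at the other. Group and set were taken off these values and any other shared preparation was not, so they describe how far repeat spots of a gene moved together from array to array. The set shift itself could differ between repeat spots, with 1.10 and 0.163 z for Lama5 and -0.555 and 0.00417 z for Cdh1.

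**Figure D3:**
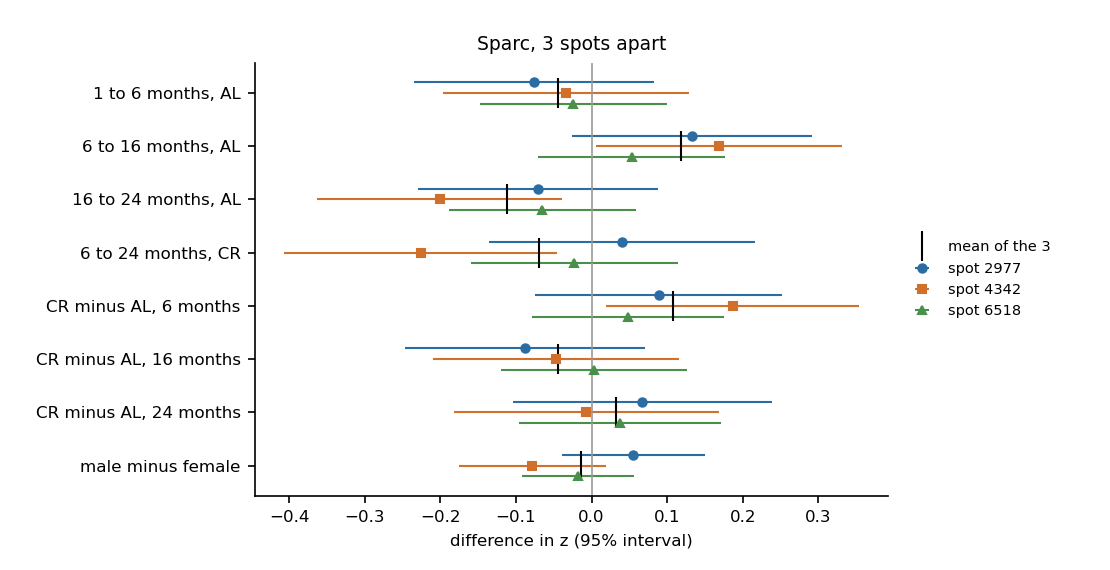
Difference in z with its 95% interval at each of the 3 Sparc spots (coloured) and for their mean (black bar) in 8 comparisons. The spots lie on the same side of 0 for the steps from 6 to 16 and from 16 to 24 months under AL and on both sides for several others.

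Itgb1, the common beta subunit, had the lowest p of any member for age under CR. Set-adjusted z ran from 0.300 to 0.890 (median 0.610, n = 9) at 6 months and from 0.180 to 0.630 (median 0.484, n = 8) at 24 months. The ranges overlapped over much of their length. The difference was -0.187 ± 0.0704 z (unadjusted p = 0.0101, adjusted p = 0.993), with -0.202 z in the earlier and -0.140 z in the later set. Under AL the same span gave -0.0111 z, but the test of the difference between the diets had an unadjusted p of 0.0680 (-0.175 ± 0.0945 z). Its partner Itga5, the alpha subunit of the fibronectin receptor, had -0.0290 z under CR and -0.0130 z under AL. Of 16 partner pairs drawn up, such as a ligand and its receptor, only Itga5 with Itgb1 had both genes tested; 3 further pairs of tested partners (Itga1 and Itga9 with Itgb1, Lama5 with Lamc1) were added after the data were seen.

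Over 67 arrays, with group and set taken off, Itga1, the alpha subunit of a collagen receptor, and Itgb1 had residuals that correlated with Pearson's r = 0.351 (permutation p = 0.00363, adjusted over the 4 pairs 0.0145) and Spearman's rho = 0.346 (permutation p = 0.00443, adjusted 0.0177). Without the 2 arrays farthest from the Itga1 median, r was 0.332. In arrays 1 to 45 r was 0.508 (permutation p = 0.00027), and in arrays 46 to 67 it was -0.188. In the later set each group has 1 or 2 arrays. Residuals there are 0 or an equal and opposite pair, so every r of that set rests on few independent values. The permutations shuffled residuals over arrays as if independent, although group means had been taken off. The permutation p-values given here therefore tend to be too small. For Itga9 with Itgb1 the sign was negative, with r = -0.253 (permutation p = 0.0398, adjusted 0.0795) and rho = -0.305 (permutation p = 0.0126, adjusted 0.0252) over all arrays, r = -0.252 without the 2 farthest arrays, and r = -0.349 and -0.373 in the sets. Itga5 with Itgb1 had r = -0.0622 (permutation p = 0.618) and rho = -0.0836 (permutation p = 0.503), r = -0.0516 without the 2 farthest arrays, and r = -0.0645 and -0.487 in the sets. Lama5 with Lamc1 had r = -0.221 (permutation p = 0.0738) and rho = -0.257 (permutation p = 0.0367, adjusted 0.0490), r = -0.175 without the 2 farthest arrays, and r = -0.288 and 0.0502 in the sets. With the rounds of arrays also taken off, r over all arrays was 0.169 for Itga5 and 0.459 for Itga1 with Itgb1. It was -0.355 for Itga9 with Itgb1 and -0.356 for Lama5 with Lamc1. The sign for Itga5 turned with that term, while over all arrays Itga1 stayed positive and Itga9 negative. In arrays 46 to 67 without the 2 farthest arrays, r for Itga1 with Itgb1 was -0.646. The partners of Itgb1 thus differed in sign, and repeat spots of a single gene, above, reached no higher than 0.189. Each array's values were scaled on that array, so all pairs share its scaling.

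**Figure D4:**
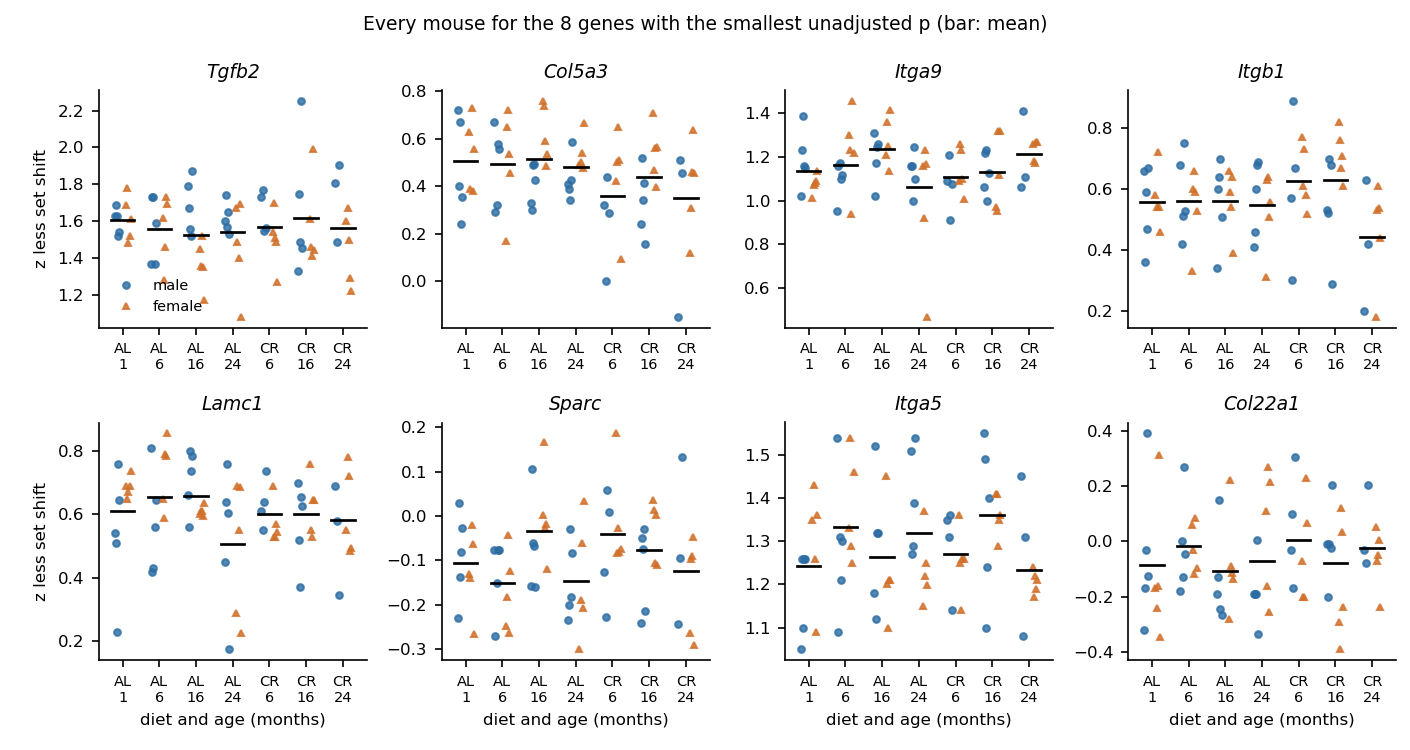
Every mouse for the 8 members with the smallest unadjusted p, as z less the fitted shift between the sets, by diet and age in months (circles male, triangles female, bar: group mean). The groups overlap for each gene. The lowest AL mouse of 24 months for Itga9 and Tgfb2 is the same animal (0.468 and 1.08), and their spots share a class of spot number (modulo 22).

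For diet, the comparison asks whether restricted mice differ from AL mice of the same age in months. At 24 months the CR males were all younger in days than the AL males. At 6 months 1 member had an unadjusted p under 0.05 (background 3.85%), at 16 months none (background 1.33%), at 24 months 1 (background 11.1%) and over the 3 adult ages 1 (background 4.77%). The member medians were 0.0149, 0.0015, 0.0333 and 0.00483 z, against -0.0118, 0.003, 0.0163 and 0.0031 z in all features. Col5a3 was the member with the lowest p over the adult ages: set-adjusted z ran from 0.170 to 0.760 (median 0.493) in 30 AL mice and from -0.150 to 0.710 (median 0.440) in 27 CR mice. The CR mice reached lower, but most of the range was shared. The difference was -0.124 ± 0.0444 z (unadjusted p = 0.00687, adjusted p = 0.729). It was lower in CR mice at each age, by -0.146 z at 6, -0.078 z at 16 and -0.148 z at 24 months, and in each set, by -0.124 and -0.158 z. Without any single array the difference over the adult ages was -0.144 to -0.0892 z. At 24 months, where CR mice were fewest, the value came down to -0.0420 z without replicate 1 of the CR males. Adamts4 (0.0377 z) and Tgfb2 (0.0549 z) followed, with unadjusted p-values of 0.231 and 0.268. The type V partner chain Col5a1, which was below the limit, had -0.0958 z over the adult ages in a fit without the filter (unadjusted p = 0.0288, adjusted p = 0.893); it was looked up after the value of Col5a3 was seen.

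The other low p-values for diet belonged to Sparc at 6 months (0.108 ± 0.0522 z, unadjusted p = 0.0429, adjusted p = 1.00) and Itga9 at 24 months (0.150 ± 0.0699 z, unadjusted p = 0.0361, adjusted p = 0.424). Both were higher in CR mice. For Sparc, values ran from -0.270 to -0.0433 in AL and from -0.227 to 0.187 in CR mice. For Itga9 they ran from 0.468 to 1.25 in AL and from 1.06 to 1.41 in CR mice. Leaving out the array numbered 67 changed the Itga9 difference to 0.0834 z (unadjusted p = 0.182). Some cell-type markers also differed in that comparison. The neuronal Stmn3 was 0.186 z higher in CR mice (unadjusted p = 0.0265), with a median of 0.0753 z over 4 neuronal markers, 3 of them higher. The astrocyte enzyme Glul was -0.146 z (unadjusted p = 0.0137), with a median of -0.0687 z over 3 astrocyte markers, 1 of them higher. Neither gene passed adjustment, and the part of these markers in the Itga9 value was not tested. The marker values are given only with the array numbered 67 included. The opposite sign stood at 16 months, where Itga9 was -0.107 z (unadjusted p = 0.103). At 16 months the lowest p was that of Itga5 (0.0970 z, unadjusted p = 0.0903). At 24 months Pecam1 differed by 0.0866 z (95% interval -0.0991 to 0.272), an interval that includes both 0 and the size seen in Itga9, and Bsg by -0.0586 z. Without the array numbered 67 these were -0.0308 z (unadjusted p = 0.660), so that the sign of Pecam1 turned, and -0.0124 z. From 16 to 24 months under AL, Pecam1 had 0.0210 z, which became 0.140 z (unadjusted p = 0.0348) without that array.

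The test of whether age acted differently under the diets (24 against 6 months, CR against AL) gave 1 member, Itga9 (0.209 ± 0.0967 z, unadjusted p = 0.0341, adjusted p = 0.478; background 9.78%, or 5.87% without the array numbered 67). It became 0.141 z with an unadjusted p of 0.1001 without that array.

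Sex gave the smallest unadjusted p-values of any member. Males and females were compared over the 6 adult groups of age and diet, 27 males with 30 females; 2 of 16 members had an unadjusted p under 0.05 (background 8.53%), and the median difference was 0.00417 z in the members and 0.00241 z in all features. Tgfb2, a TGF-beta ligand made by neurons and glia, was higher in males: set-adjusted z ran from 1.33 to 2.25 (median 1.60) in males and from 1.08 to 1.99 (median 1.49) in females. Males sat higher throughout, with wide overlap. The difference was 0.161 ± 0.0491 z (unadjusted p = 0.00169, adjusted p = 0.355). It held its sign in each set, with 0.109 z (unadjusted p = 0.0214) in arrays 1 to 45 and 0.265 z (unadjusted p = 0.0359) in arrays 46 to 67, and without any single array it was 0.134 to 0.181 z. With arrays weighted by their quality it was 0.188 ± 0.0446 z and passed, at adjusted p = 0.0451. The Tgfb2 spot also had one of the widest shifts between sets, -1.20 z. Spots of its class (spot number modulo 22) had a median shift of -1.04 z, and the Itga9 spot is in that class too. The receptor Tgfbr3 and the receptor-associated Tgfbrap1 were both below the limit.

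Col5a3 was lower in males, with z from -0.150 to 0.670 (median 0.410) against 0.0953 to 0.760 (median 0.505) in females. The lowest value among CR mice was -0.150 too. The difference was -0.141 ± 0.0444 z (unadjusted p = 0.00235, adjusted p = 0.355), and without any single array it was -0.161 to -0.106 z. In the earlier set it was -0.183 z (unadjusted p = 0.00280) and in the later -0.025 z (unadjusted p = 0.665). Pecam1 came next, higher in males by 0.101 ± 0.0516 z (unadjusted p = 0.0538, adjusted p = 0.577), and by 0.0634 z (unadjusted p = 0.101) without the array numbered 67, whose Pecam1 value was the lowest of all.

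**Figure D5:**
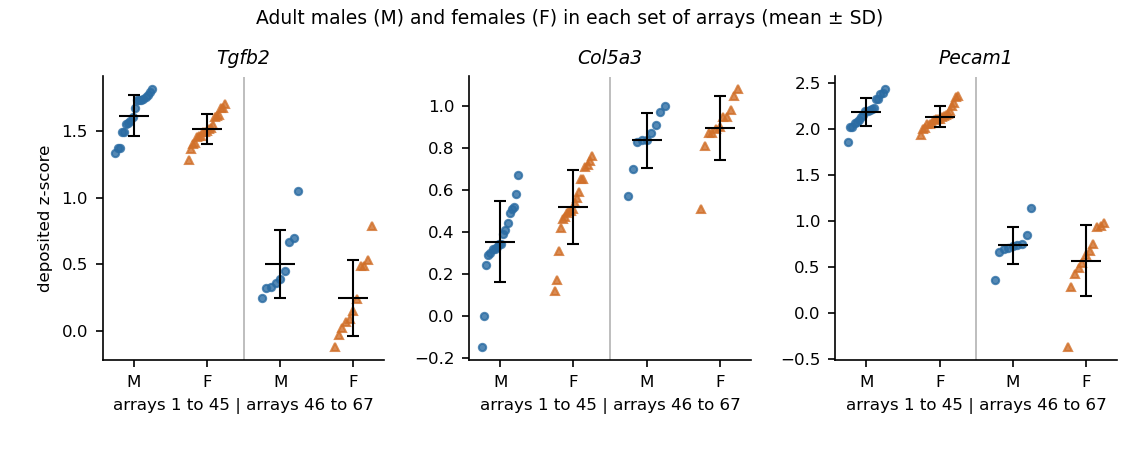
Deposited z-scores of adult males (circles) and females (triangles) in each set of arrays, with mean ± SD, for the 3 members with the smallest p for sex. Mean Tgfb2 was 1.61 in males and 1.51 in females in arrays 1 to 45 and 0.502 and 0.247 in arrays 46 to 67; for Col5a3 the means were 0.352 and 0.519, then 0.837 and 0.896.

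Whether diet acted differently in the sexes gave Col22a1 alone (0.197 ± 0.0962 z, unadjusted p = 0.0448, adjusted p = 0.946; background 4.63%), with 0.119 z in the earlier and 0.355 z in the later set. Whether age from 6 to 24 months under AL acted differently in the sexes gave 2 integrin subunits (background 6.95%): Itga5 (0.246 ± 0.113 z, unadjusted p = 0.0332) and Itga9 (0.273 ± 0.130 z, unadjusted p = 0.0389), both at adjusted p = 0.609. For Itga5, set-adjusted z in males was 1.29 ± 0.165 (SD, n = 5) at 6 and 1.40 ± 0.123 (n = 5) at 24 months; in females it was 1.37 ± 0.122 and 1.24 ± 0.0823 (n = 5 each). The sexes thus moved in opposite directions between these means. For Itga9 the females had 1.23 ± 0.188 at 6 and 0.989 ± 0.315 at 24 months, and without the array numbered 67 the term was 0.133 z (unadjusted p = 0.253), while that of Itga5 was 0.236 z (unadjusted p = 0.0482). Lama5 came next with -0.278 ± 0.146 z (unadjusted p = 0.0610).

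The remaining members kept small differences. Col2a1 stayed between -0.0556 and 0.0495 z in all 13 comparisons, Itga1 between -0.0528 and 0.0782, Adamts4 between -0.065 and 0.0731, and Cdh1 between -0.0505 and 0.117, none with an unadjusted p under 0.05. Cldn6 and Bsg ranged wider, with -0.0906 z for Cldn6 from 6 to 24 months and -0.0892 z for Bsg from 6 to 16 months under AL. Terms that compare differences reached 0.151 and -0.222 z. The smallest unadjusted p-values of Cldn6 and Bsg were 0.158 and 0.114. The 26 members below the limit were tested in a fit without the filter: 11 of their 338 tests had an unadjusted p under 0.05 (3.25%, against 6.56% of the tests of all features in that fit), none passed, and the smallest adjusted p was 0.306. Among these, the endothelial cadherin Cdh5 had 0.200 ± 0.0733 z for diet at 6 months (unadjusted p = 0.00841, adjusted p = 0.999). It was picked as the smallest unadjusted p among them.

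Genes that work with the members gave few measured values. Of 33 other matrix proteins listed, 2 were on the filter and none passed the limit. Of 11 collagen-processing enzymes 3 were on it and only Bmp1, the procollagen C-proteinase, was tested (0.134 z for diet at 24 months, unadjusted p = 0.0940). Of 23 adaptor and junction proteins 5 were on it and 2 were tested: Vcl, vinculin of focal adhesions, was lower in CR mice at 24 months by -0.142 ± 0.0507 z (unadjusted p = 0.00685, adjusted p = 0.261), and Ctnna1, the catenin that links cadherins to actin, had -0.0235 z. Of 27 other adhesion receptors 3 were on the filter and 1 was tested (Sdc1, -0.00566 z). Of 23 further TGF-beta pathway genes 6 were on it and 2 were tested, Acvr2a (0.0320 z) and Smurf2 (-0.0197 z). Endothelial markers offered only Pecam1 above the limit, so a change in vessel content would be seen in these data mainly through that spot. Neuronal markers had a median of -0.122 z from 16 to 24 months under AL (2 of 4 with an unadjusted p under 0.05, both lower: Stmn3 -0.213 z and Uchl1 -0.118 z), beside the lower Itga9, Lamc1 and Sparc. Of 3 astrocyte markers only 1 was higher, Glul at 0.124 z (unadjusted p under 0.05). The astrocyte median was -0.007 z, and Aldoc had -0.081 z. Of 2 oligodendrocyte markers Fth1 was higher, at 0.138 z (unadjusted p under 0.05), and Car2 was lower, at -0.031 z. None passed adjustment, and their part in the member values was not tested. All values in this paragraph include the array numbered 67. The step from 16 to 24 months and the diet comparison at 24 months share the 24-month AL mice and are not independent.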

How the data were processed

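Total RNA of each cortex was labelled, per the labels with 33P-dCTP (the methods name another phosphorus isotope), and hybridised to a cDNA filter. The authors z-transformed each array; the deposited values are that score, 1 per spot and array, and whether intensities were log-transformed first is not given in the sources used here. Depth has no meaning here, and the number of arrays limits precision. Symbols came from the platform annotation: 4788 spots had 1 symbol, 212 several and 3448 none. Spots of a gene were averaged, giving 7565 features, of which 3609 had a mean z above 0. Limma 3.58.1 in R 4.3.3 was fitted to all 67 arrays with 14 group means and the set of arrays (1 to 45, 46 to 67) as a term. Tests were two-sided with Benjamini-Hochberg adjustment over all features. The p-values rest on the spread between arrays, 1 per mouse, which holds mouse and measurement differences together. The term was chosen, and the members and lists drawn up, with earlier results of these data known. Set-adjusted z is z less the fitted set shift. Named genes were the 3 members of smallest unadjusted p per comparison, the highest of each family, the genes singled out by name in the selection, those with several spots, and per list the 2 of smallest p. The fit was tested on simulated data. Correlations used 100000 permutations of the residuals over arrays, with no allowance for the group means taken off. Python 3.11.15, scipy 1.17.1 and matplotlib 3.10.9 were also used. Alternatives were no set term, each set alone, no filter, other ways of averaging spots, separate fits, array weights, a trended robust prior, quantile normalization, the z-ratio rule of the methods, rounds of arrays as a block (added after the data were seen) and leaving out each array.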

Additional observations from a re-analysis of the deposited data

Results flagged for a closer look

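Of 56 groups of 8 to 10 mice (8 genes, 7 groups of age and diet), 3 held a mouse far from the others by Dixon's test at the 95% level. Chance flags about 1 in 20 of independent groups. The 8 genes were picked by small p-values in these data and share their arrays, so that rate cannot be set beside this count. In the 24-month AL group, replicate 5 of the females (the array numbered 67) was lowest for Tgfb2, with a set-adjusted z of 1.08 against 1.40 for the next mouse, and for Itga9, with 0.468 against 0.920. The spots of Tgfb2 and Itga9 share a class of spot number (modulo 22), and the part of spot position in these low values was not tested. In the 1-month AL group, replicate 3 of the males was lowest for Lamc1, with 0.230 against 0.510.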

How the results depend on the processing

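The count of members past adjusted p < 0.05 was 0 in all 13 comparisons and stayed 0 under every alternative run, with 2 exceptions, both for sex. With array weights it was 1 (Tgfb2, adjusted p = 0.0451; over the other alternatives its adjusted p was 0.144 to 1.00, and 11 of 3609 features were called). Under the z-ratio rule of the methods, which names no test for its first p and was run here with a pooled-variance comparison of 2 means followed by the two-way analysis of variance, both unadjusted, it was 1 (Col5a3, z-ratio -2.85), and 0 after Benjamini-Hochberg adjustment; that rule could not be applied to the 3 interactions. Leaving out each of the 67 arrays kept the count between 0 and 0, but 12 of these fits tested fewer than the 16 members, down to 14, and Sparc was tested in 55. Of the 39 named differences, 35 kept their sign in every alternative. The exceptions were Sparc from 1 to 6 months under AL (0.0117 z in arrays 46 to 67 alone), Sparc from 6 to 24 months under CR (0.0142 z in arrays 46 to 67 alone, 0.00891 z with only its spots above 0 averaged, 0.000251 z with array weights), Tgfb2 for diet at 16 months (-0.0500 z in arrays 1 to 45 alone) and Lamc1 for age by diet (-0.00329 z with array weights); the cause was not tested. Without the array numbered 67, features with an unadjusted p under 0.05 numbered 284 in place of 542 from 16 to 24 months and 141 in place of 293 from 6 to 24 months under AL, 232 in place of 399 for diet at 24 months, 212 in place of 353 for age by diet, and 61 in place of 251 for sex by age; for sex by diet they numbered 255 in place of 167. Replicate numbers follow the order of accessions and name no shared animal. The rounds of the running numbers, added as a replicate block after the data were seen, left 0 members called in all 13 comparisons and turned no named difference; the median residual correlation was 0.0554 between arrays of a round and -0.0698 between rounds of a set.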
